A study of Mus musculus with 26 samples.

Results

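The regions described here are stretches of mouse DNA that were called as open in every library of 6 pluripotent cell cultures. The assay was ATAC-seq: Tn5, a transposase, cuts DNA that is not wrapped up and tags the cut ends for sequencing, and pile-ups of such fragments are called as peaks. From each of 18 lists the top 8044 peaks by −log10 p were used, 8044 being the length of the shortest list, and overlapping or touching peaks were merged into 25068 union regions. A peak from all 18 lists lay on 1500 of these regions, which is 5.98% of the union regions. Because the lists themselves chose the regions, their number, their ranks in those lists and their number of lists are given as descriptions, without a test.

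The 18 libraries, called the first set here, came in groups of 3 from 6 cultures that are called lines here. Formative stem (FS) cells, which the series title places in formative pluripotency, were grown in the medium A3XR and taken at passage 21 (FS1) and passage 29 (FS2). Epiblast stem cells (EpiSCs), a primed pluripotent cell type, were grown in AF medium at passage 22 (EpiSC_AF) or in AFX medium at passage 14 (EpiSC_AFX1) and passage 16 (EpiSC_AFX2). Embryonic stem (ES) cells, a naive pluripotent cell type, were grown in 2iL medium at passage 16. A separately processed set, called Rd2 after its source names, held 8 more libraries whose titles carry the tag WT. These were 2 of ES cells in 2iL at passage 33 (Rd2_ES), 4 of GFP-low sorted epiblast-like cells that had been made from ES cells in AF with KSR, in 2 days (Rd2_EpiLC), and 2 of passage 16 EpiSCs grown in AFX (Rd2_AFX). The labels give no strain and no sex, and name the source of Rd2_ES as Rd2GFP without saying what drives the GFP. Whether Rd2 names a cell line is not stated, so differences of cells and of processing between the sets cannot be told apart. The labels do not say whether libraries of a group were separate cultures. Titles of the 4 Rd2_EpiLC libraries carry 2-part numbers whose meaning is not stated. The p-values therefore measure only the spread between these libraries.

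The deposited lists of the 18 libraries held from 8044 peaks in an ES library to 31263 in an FS1 library, and those of the Rd2 set from 471 to 26045. Read counts were not used here, so sequencing depth is unknown and no counting interval is given. As a check of the labels, 8 to 9 of 13 naive pluripotency genes had a peak in the gene or within 20 kb among the 8044 peaks of the ES libraries, against 3 to 6 in the libraries of the other lines. Of 11 formative genes, 2 to 5 had one in ES, 6 to 7 in FS1, 5 to 8 in FS2 and 8 to 10 in the EpiSC libraries. The formative counts were thus highest in EpiSCs and not in FS cells. Of 16 primed and germ layer genes, 0 to 3 had one in ES, 3 to 4 in FS1 and 4 to 6 in FS2. In EpiSC_AF it was 4 to 6, in EpiSC_AFX1 6 to 7 and in EpiSC_AFX2 3 to 7, ranges that overlap those of FS cells except in EpiSC_AFX1 against FS1. Peaks also lay at 1 to 4 of 15 liver genes and at 3 to 5 of 14 blood and immune genes in the 18 libraries, genes of cell types that the labels do not name. Of 18 neuron and muscle genes, 3 to 5 had one in ES and 6 to 10 in the other lines. The counts of ES and the other lines thus differed in the neuron and muscle list as well. The share of all coding genes at this distance is not given here, so the counts have no base beside them.

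Promoters are the DNA just before a transcription start where general factors and RNA polymerase II assemble. Many promoters of genes that most cells use are rich in CpG and hold short motifs for broadly expressed factors such as SP and KLF proteins, ETS proteins, NRF1 and NF-Y. NF-Y is a trimer with histone-like subunits that binds the pentamer CCAAT, usually a short way before the start, in promoters of cell cycle, chaperone and lipid synthesis genes among others.

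The pentamer CCAAT, or its reverse complement ATTGG, was, among 11 motifs searched, the one whose share differed most, in percentage points, between promoters in these regions and promoters in regions of 1 to 14 lists. The promoters below were chosen to show this. Tepsin, Cggbp1 and Sel1l were among the highest ranked regions at gene ends, Hspa5 and Hsp90b1 encode chaperones of the endoplasmic reticulum, and Hmgcs1 encodes a cholesterol synthesis enzyme. Etv5 was the only formative gene of the list with a region in every list, and Esd, which encodes esterase D, is one of several highly ranked promoters without the pentamer. Each line gives the 250 bases before the start, in the direction of the gene, from RefSeq on GRCm38.p6, with CCAAT and ATTGG in capitals.
Tepsin (chr11:120098732-120098981, minus strand): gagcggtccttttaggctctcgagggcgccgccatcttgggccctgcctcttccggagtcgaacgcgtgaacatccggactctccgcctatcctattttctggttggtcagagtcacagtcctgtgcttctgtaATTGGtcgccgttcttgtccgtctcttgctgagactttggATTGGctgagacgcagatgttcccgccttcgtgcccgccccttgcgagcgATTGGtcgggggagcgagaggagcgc
Cggbp1 (chr16:64851751-64852000, plus strand): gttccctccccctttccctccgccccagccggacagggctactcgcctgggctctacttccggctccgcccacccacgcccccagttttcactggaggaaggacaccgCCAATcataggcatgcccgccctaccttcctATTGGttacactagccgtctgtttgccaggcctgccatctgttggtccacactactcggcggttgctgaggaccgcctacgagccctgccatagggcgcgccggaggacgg
Sel1l (chr12:91849158-91849407, minus strand): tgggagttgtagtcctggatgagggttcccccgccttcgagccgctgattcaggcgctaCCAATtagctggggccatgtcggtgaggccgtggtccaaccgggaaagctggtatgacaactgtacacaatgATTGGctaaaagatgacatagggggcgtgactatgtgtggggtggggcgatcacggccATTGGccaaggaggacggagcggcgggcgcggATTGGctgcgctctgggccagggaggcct
Hspa5 (chr2:34771840-34772089, plus strand): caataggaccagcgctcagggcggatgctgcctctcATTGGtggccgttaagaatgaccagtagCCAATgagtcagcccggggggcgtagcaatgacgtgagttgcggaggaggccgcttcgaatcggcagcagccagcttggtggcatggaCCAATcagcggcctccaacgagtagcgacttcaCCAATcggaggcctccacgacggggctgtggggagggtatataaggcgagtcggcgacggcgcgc
Hsp90b1 (chr10:86705445-86705694, minus strand): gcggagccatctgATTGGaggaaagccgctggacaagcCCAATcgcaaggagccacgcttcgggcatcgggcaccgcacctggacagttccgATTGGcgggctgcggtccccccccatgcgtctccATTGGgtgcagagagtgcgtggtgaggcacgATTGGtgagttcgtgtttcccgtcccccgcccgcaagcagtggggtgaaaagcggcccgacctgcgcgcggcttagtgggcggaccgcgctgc
Hmgcs1 (chr13:119690101-119690350, plus strand): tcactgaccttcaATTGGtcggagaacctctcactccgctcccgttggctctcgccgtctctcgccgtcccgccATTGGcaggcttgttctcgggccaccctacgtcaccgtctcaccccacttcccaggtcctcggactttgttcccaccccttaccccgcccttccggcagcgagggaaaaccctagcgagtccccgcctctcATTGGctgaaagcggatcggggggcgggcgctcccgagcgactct
Etv5 (chr16:22439571-22439820, minus strand): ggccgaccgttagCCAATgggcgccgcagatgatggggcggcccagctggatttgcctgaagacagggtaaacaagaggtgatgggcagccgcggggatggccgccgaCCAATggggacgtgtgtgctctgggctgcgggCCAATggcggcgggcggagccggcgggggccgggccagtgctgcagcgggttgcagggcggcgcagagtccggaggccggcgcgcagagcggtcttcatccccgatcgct
Esd (chr14:74732047-74732296, plus strand): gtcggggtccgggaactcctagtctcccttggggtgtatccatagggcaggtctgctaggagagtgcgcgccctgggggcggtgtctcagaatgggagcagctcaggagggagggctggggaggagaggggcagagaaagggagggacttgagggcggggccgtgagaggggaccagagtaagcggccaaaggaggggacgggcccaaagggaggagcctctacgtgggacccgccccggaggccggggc

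These 8 sequences differ in how many copies they carry and where. Hsp90b1 holds 5 copies, Sel1l and Hspa5 hold 4 each, Tepsin, Hmgcs1 and Etv5 hold 3 each and Cggbp1 holds 2. Esd holds 0, and its mean percentile rank over the 18 lists, on a scale where 100 is the top peak, was 95.8 beside 96.3 for Hmgcs1, so the pentamer did not accompany every highly ranked promoter. GC content ran from 60% in the Tepsin sequence to 71.2% in that of Etv5.

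Promoters whose start lay in a region found in all 18 lists held CCAAT in 972 of 1363 cases, or 71.3%. The promoters are windows of 300 bases, of which RefSeq starts in regions of 15 to 17 lists held it in 55.7%, those in regions of 1 to 14 lists in 33.7%, and all 32851 promoters of the table in 37.4%. Along the number of lists the share went from 27.2% at 1 to 3 lists through 31.7% at 4 to 6, 37.8% at 7 to 9, 38.1% at 10 to 12, 47.2% at 13 to 15 and 57.3% at 16 to 17 to 71.3% at 18. At least 2 copies were present in 48.9% of the promoters in the 18-list regions, in 26.2% of those in 15 to 17 lists and in 11.7% of all promoters. No test was made over promoters, which are not replicates, and neighbouring genes with opposite directions can share a region and much of a sequence. With 1 promoter counted for each gene the share was 72.5% or 72.8%, depending on which promoter of a gene was taken.

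Base composition moved little beside this. Mean GC content was 64.7% in promoters of the 18-list regions, 64.5% at 15 to 17 lists and 62.8% at 1 to 14 lists, against 53.8% over all promoters. The ETS motif CCGGAAG was present in 18.7%, 19.1% and 19.3% of the promoters at 18, 15 to 17 and 1 to 14 lists, against 8.86% of all promoters and 4.25% of those whose start lay in no union region. GGGCGG, bound by SP and KLF proteins, went from 70.1% at 1 to 14 lists to 81.2% and 82.0%. The palindromic motif of NRF1 was present in 5 of the 1363 promoters, or 0.367%, against 2.72% at 1 to 14 lists and 0.971% over all, which between the list classes is a larger ratio than that of the pentamer. TATAAA was present in 3.37% of the promoters, against 13.6% of all promoters. All motifs were searched on both strands, and a match is a run of letters, not a bound site.

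Within the 1500 regions motif shares also differed by rank. The 340 promoters with the highest mean rank held CCAAT in 82.9% of cases, and the following 3 groups of 341 in 71.6%, 69.8% and 61.0%. The ETS motif was present in 10.6%, 18.2%, 23.2% and 22.9% of the promoters of the same 4 groups. Position was uneven as well. In the 18-list promoters 25.5 copies per 100 promoters were centred 75 to 50 bp before the start, against 17.6 at 15 to 17 lists and 8.19 at 1 to 14 lists, and beyond the start all 3 classes were low, at 4.33, 4.81 and 2.41 in the first 25 bases.

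**Figure D1:**
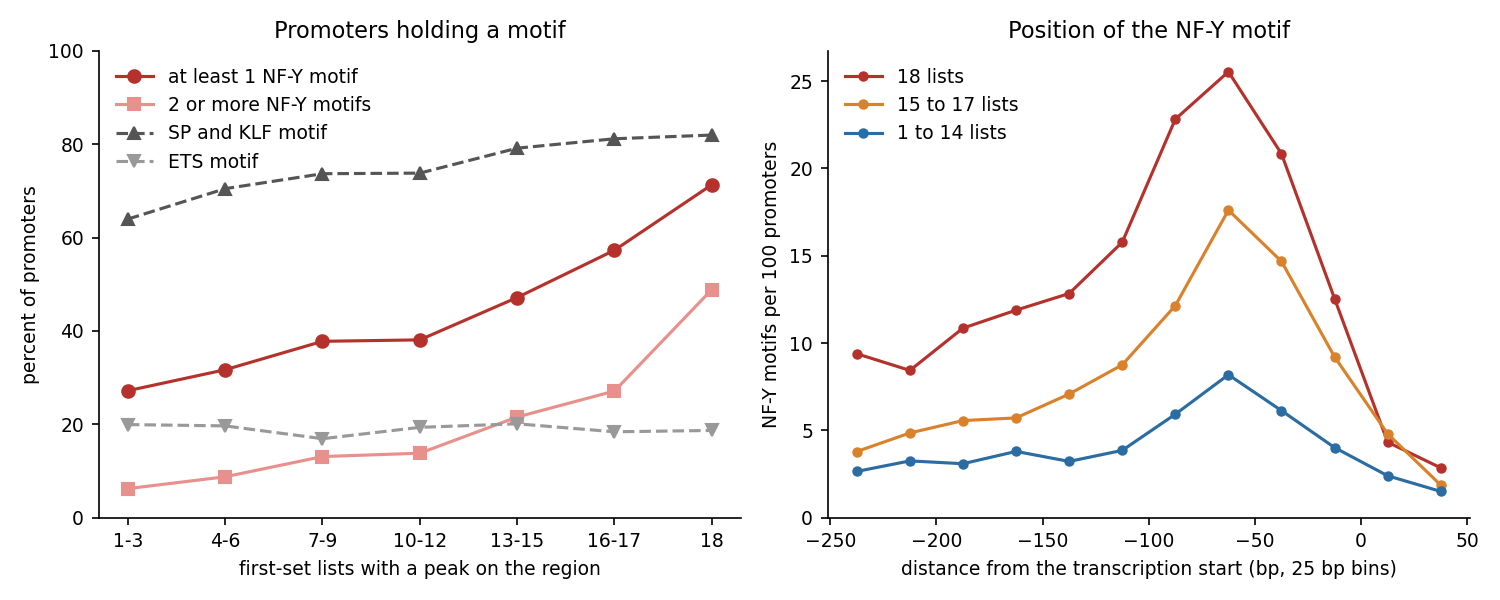
Left, percent of promoters (300 bases around a RefSeq start) holding a motif, against the number of first-set lists with a peak on the region that holds the start; right, NF-Y motif copies per 100 promoters in bins of 25 bp along the distance from the start, for regions in 18, 15 to 17 and 1 to 14 lists. The share with the NF-Y motif climbs from 27.2% to 71.3% while the ETS motif stays near 19%, and copies peak 75 to 50 bp before the start in all 3 classes.

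The Rd2 lists, which took no part in choosing the regions, gave the same order. Among promoters whose start lay in an Rd2 peak, those on the 18-list regions held CCAAT in 73.5% (an EpiLC library) to 83.3% (an ES library) of cases. In the 8 libraries the other promoters with an Rd2 peak held it in 37.0% to 44.5%. The sequence of a promoter is the same in every library, so this repeats the choice of promoters more than the measurement.

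Most of the regions lay at genes. Of the 1500, 1081 (72.1%) were no more than 1 kb from the start or end of a coding gene, a distance called a gene end here, against 39% of all union regions. Another 224 lay at 1 to 20 kb, 193 (12.9%) over 20 kb away against 32.3% of all union regions, and 2 on the mitochondrial genome. A RefSeq start lay inside 907 of the 1081 regions at gene ends, counted with a promoter table that holds no start on chromosome 18, where 44 of the 1500 regions lay. Coding genes on both strands started inside 114 of the 979 regions that held a coding start, or 11.6%, against 8.66% of such regions in 15 to 17 lists. These are shares of regions chosen by the lists and are described only.

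The share at gene ends climbed with the number of lists up to 17, apart from a step down from 44.1% at 4 lists to 42.2% at 5. It was lower at 18 than at 17. The share was 18.4% for the 8788 regions in 1 list, 79.2% for the 859 in 17 lists and 72.1% in all 18. The share over 20 kb from a gene went the other way, with 55 of the 859 regions in 17 lists and 193 of the 1500 in all 18. The regions in every list thus held a set of promoters and a smaller set of sites far from genes.

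**Figure D2:**
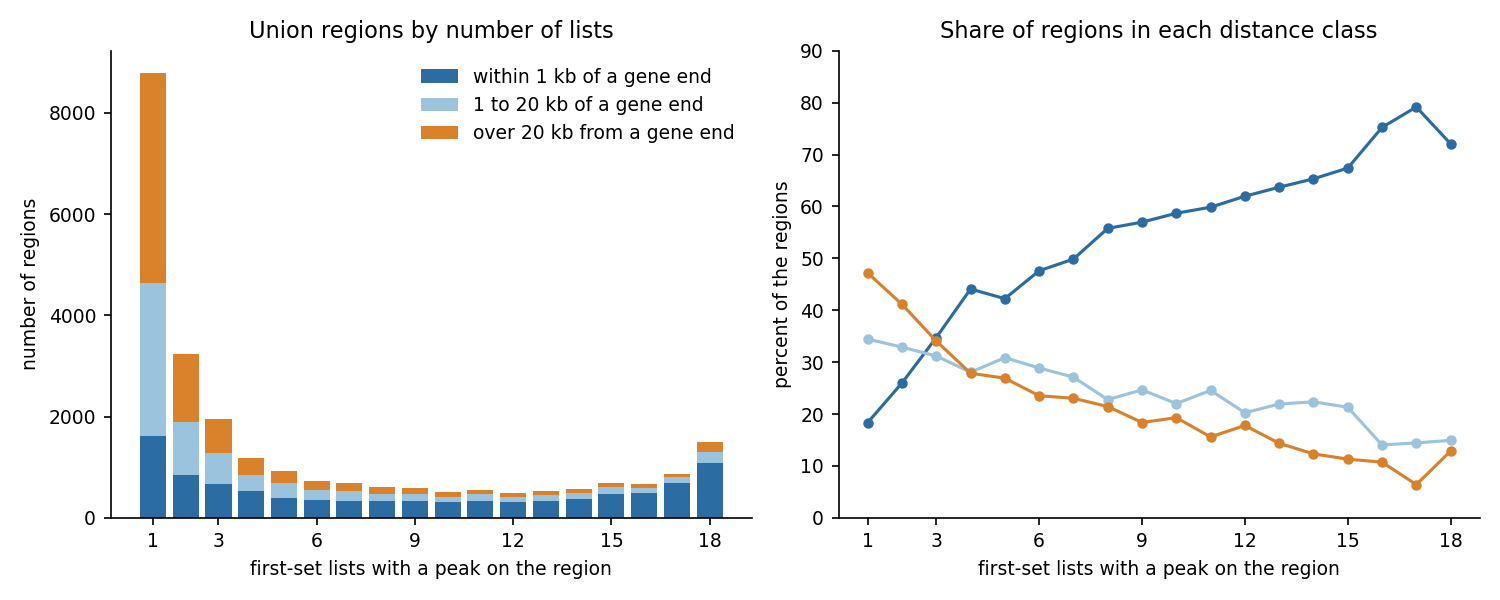
Left, number of union regions by the number of first-set lists with a peak on them, stacked by distance from the nearest end of a protein-coding gene; right, percent of the regions in each distance class. Regions in 1 list number 8788 and those in all 18 number 1500, and the share over 20 kb from a gene end is higher at 18 lists than at 17.

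The regions were wide. Their median width was 752.5 bp, with a range of 194 to 6968 bp, against 727 bp for regions in 15 to 17 lists and 346 bp for all regions outside the 18-list class. Regions at gene ends were widest, with a median of 795 bp, followed by 622.5 bp at 1 to 20 kb and 496 bp over 20 kb. Merging widens a region with each list added. The peak that a single list placed on a region had a median width of 425 bp, against 372 bp at 15 to 17 lists. Autosomes held between 5.33% (chromosome 5) and 7.02% (chromosome 12) of their union regions as 18-list regions, the X chromosome 16 of 646 (2.48%).

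Rank within a list was expressed as a percentile, in which 100 is the peak with the highest −log10 p of the 8044 and 0 the lowest, and a region took its best peak. The median percentile of the 1500 regions ran from 77.1 in an FS2 library to 86.7 in an EpiSC_AFX1 library. Among the top 100 peaks of a list, 93.7% ± 5.38 (SD, n = 18 libraries) lay on the 1500 regions, and only 13.1% ± 9.94 of those top 100 peaks were within 1 kb of a gene end. The share of peaks on the regions went down to 35.7% ± 3.54 at ranks 1001 to 2000 and 2.44% ± 1.77 at ranks 6001 to 8044.

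The sites far from genes ranked above the promoters in every library. Regions over 20 kb from a gene had library medians of 88.5 to 98.3, and regions at gene ends of 70.7 to 85.2. By line, the far regions had a mean of library medians of 98.1 ± 0.137 in ES, 98.2 ± 0.0799 in FS2, 96.9 ± 0.624 in EpiSC_AFX1, 96.0 ± 0.777 in EpiSC_AF, 91.1 ± 1.70 in FS1 and 89.3 ± 0.777 in EpiSC_AFX2 (SD, n = 3 libraries each). ES and FS2 were level at the top, and FS1 and EpiSC_AFX2 stood below all other lines with library values that did not overlap theirs. At gene ends the order was different: FS2 was lowest at 73.6 ± 2.5, ES next at 79.4 ± 0.304, and the other 4 lines lay between 83.1 ± 0.440 and 84.7 ± 0.523.

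**Figure D3:**
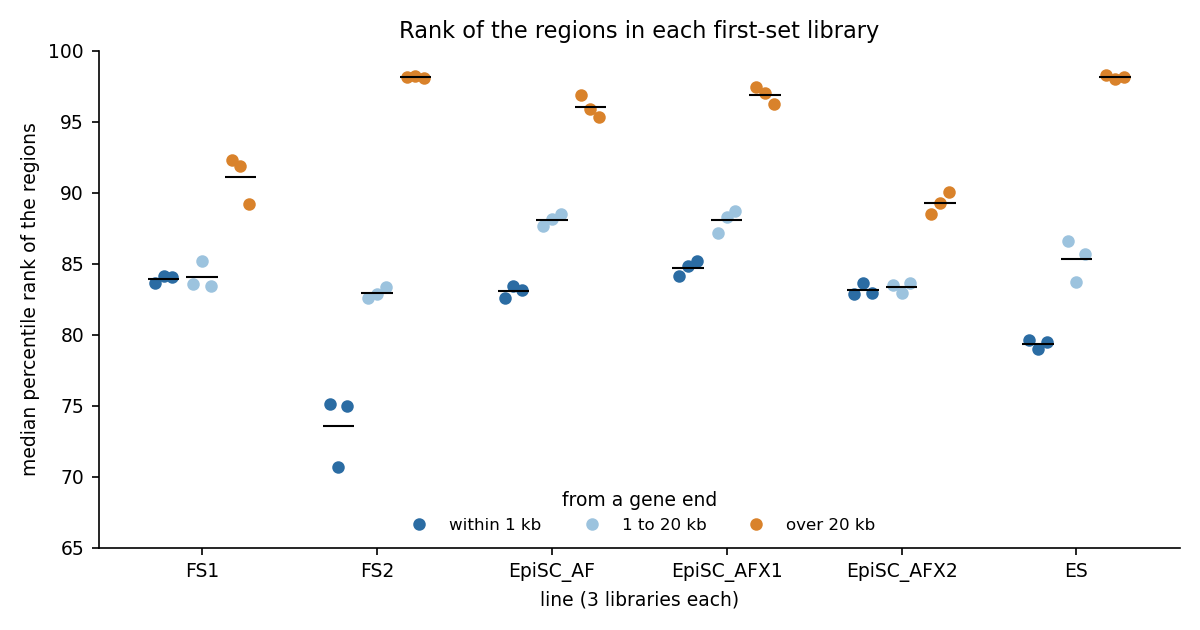
Median percentile rank of the 18-list regions in each library (points, 3 for each line) by distance from a gene end, with the line mean as a bar; the vertical axis starts at 65. Regions over 20 kb from a gene lie above regions at gene ends in every line, and the gap is widest in FS2 and ES.

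The same pairs of lines stood apart region by region. FS2 and ES were the 2 lowest lines in 432 regions, 353 of them at gene ends. FS1 and EpiSC_AFX2 were the 2 lowest lines in 191 regions, of which 94 lay over 20 kb from a gene. FS2 and ES also had the shortest deposited lists, with 12968 ± 1176 and 9570 ± 1463 peaks, while FS1 and EpiSC_AFX2 had the longest, with 27198 ± 3747 and 27065 ± 2180 (SD, n = 3 each). List length moves with the rank pattern across the lines, and its part in the pattern was not tested.

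The top of the ranking held mostly sites away from gene ends. The region with the highest mean rank, chr9:35305159-35305655, lay 29.2 kb from Rpusd4 over the long noncoding RNA gene Gm33838, and was at rank 1 or 2 in all 18 lists. Next came chr12:97061370-97061848, 1140 kb from the nearest coding gene end and at ranks 1 to 3 in all 18 lists, and chr12:3109801-3110180, 137 kb from Rab10. The region at chr6:103648990-103649361, inside the span of Chl1, which encodes a neural cell adhesion molecule, had the same rank in all 18 lists. Of these 4 regions, 3 had a peak in all 8 Rd2 lists, and the region on chromosome 12 far from any coding gene had a peak in none. Further down the highest ranks, the regions nearest Nxph1, Abcb11, Wls, Csf2ra and Mrgprd had a peak in none either. Those nearest Tmem196 and Zc3h7a had one in all 8, and that in 2210408I21Rik in 2. A region of the top 150 by mean rank had a peak in 4.37 Rd2 lists on average, against 5.97 in the next 150. All 8 lists held 32.7% of the top 150 and 18.7% of the next 150.

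Several of the widest regions lay over annotated pseudogenes, the mitochondrial genome or the first assembled bases of a chromosome. The widest, 6968 bp at chr9:3011717-3018684, and 3 further wide regions of 4791, 2700 and 2543 bp lay at the first assembled bases of chromosome 9, next to the centromere. The region chr17:39843035-39848824 covered Rn18s-rs5, a pseudogene of the 18S ribosomal RNA, and chr1:24611567-24616154 covered the pseudogenes Gm10222 and Gm10925. Both mitochondrial regions, 3980 bp and 3321 bp wide, were in every list. How reads that match several places were handled is not given in the sources used here, and peaks on such sequence are uncertain. No genome-wide list of repeats was used, so how many of the 193 far regions, or of the highest ranked regions, lie on repeated DNA was not tested.

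Leading regions at gene ends included that of Tepsin, an adaptor-associated protein, and Ndufaf8, an assembly factor of respiratory complex I, which share a region. Tepsin was at ranks 200, 141 and 54 in FS1, 169, 574 and 252 in FS2, 161, 110 and 141 in EpiSC_AF, 111, 86 and 101 in EpiSC_AFX1, 178, 70 and 131 in EpiSC_AFX2 and 208, 212 and 311 in ES. All 18 ranks were 574 or better, with FS2 and ES on average lower than the other lines. Cggbp1, a protein that binds CGG repeats, had a mean percentile of 97.5 ± 1.26 (SD over 18 libraries), Sel1l, an adaptor of the ubiquitin ligase that clears misfolded proteins from the endoplasmic reticulum, 97.0 ± 1.39, and Hook1, a linker of cargo to microtubule motors, 96.5 ± 3.27. The region 0.681 kb from Wls and that within Lars2 ranked higher still, at 99.9 and 99.5, but neither held a start of the RefSeq promoter table.

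Protein-coding genes with an end within 1 kb of a region numbered 1283 of 21883, or 5.86%. Gene lists were compared with that share without a test, since the lists were chosen with results of these data in view. Cholesterol synthesis enzymes stood highest among the 25 lists set at the start, with 9 of 24 genes (37.5%). Chromatin remodellers and histone modifiers followed with 12 of 61 (19.7%), DNA replication factors with 7 of 38 (18.4%) and chaperonins and heat shock proteins with 12 of 71 (16.9%). The chaperones were led by genes of the endoplasmic reticulum. A list of folding and degradation genes of that compartment was therefore drawn up after those values were seen, and 17 of its 35 genes (48.6%) had a region. This count includes Hsp90b1, Dnajc3, Hspa5 and Dnajb11, which the chaperone list had already counted, so the share is no separate support.

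Cholesterol synthesis members came from early and late steps of the pathway. Hmgcs1, which makes the precursor HMG-CoA, had the highest mean percentile of the list at 96.3 ± 4.16 (SD over 18 libraries), followed by Hsd17b7 at 95.6 ± 2.15 and Msmo1 at 90.3 ± 3.26, enzymes of later sterol steps. Mvk, which phosphorylates mevalonate, was at 85.2 ± 10.5, Sqle, the squalene epoxidase, at 80.1 ± 15.5 and Fdps at 52.3 ± 23.1. Srebf2, the transcription factor that drives the pathway, was at 71.1 ± 17.5. Hmgcs1 was at ranks 147, 76 and 70 in FS1, 361, 898 and 933 in FS2, 143, 164 and 171 in EpiSC_AF, 91, 87 and 71 in EpiSC_AFX1, 63, 62 and 71 in EpiSC_AFX2 and 460, 1084 and 409 in ES. FS2 and ES were again the lines where it stood lowest, and their libraries did not overlap those of the other lines. All 5 promoters of the list whose start lay in an 18-list region held CCAAT.

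Endoplasmic reticulum genes had regions at the chaperones Hspa5 and Hsp90b1, the lectin chaperones Canx and Calr, the disulfide isomerases Pdia3 and Pdia4, the degradation factors Sel1l, Edem3, Herpud1 and Derl1 to Derl3, and the stress sensor kinase Eif2ak3. Their mean percentiles ran from 54.1 for Derl1 to 97.0 for Sel1l. Hspa5, the main Hsp70 of the compartment, was at ranks 398, 1580 and 389 in FS1, 471, 1233 and 401 in FS2, 560, 1505 and 997 in EpiSC_AF, 147, 277 and 270 in EpiSC_AFX1, 827, 347 and 1331 in EpiSC_AFX2 and 3820, 1858 and 3461 in ES. The 3 ES libraries were lower than all 15 others. In this list 16 of 17 promoters in 18-list regions held CCAAT and 15 held at least 2 copies. The endoplasmic reticulum stress element is CCAAT and CCACG with 9 free bases between them, and was searched after these values were seen. It was present in 6 of the 17, at Calr, Canx, Derl3, Dnajc3, Hsp90b1 and Hspa5. Over all 32851 promoters 39 held it (0.119%), and of the 1363 in 18-list regions 8 did (0.587%), these 6 included. Dnajc3, Hsp90b1 and Hspa5 were also among the chaperone genes that led to this list.

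Chromatin genes with a region were spread over the ranking. Kdm4b, a histone demethylase, was at 89.4 ± 11.4, the CHD remodellers Chd6 and Chd8 at 87.5 ± 19.0 and 83.8 ± 13.6, and the demethylase Kdm1b at 84.1 ± 25.1. Ezh2, the methyltransferase of Polycomb complex PRC2, was at 53.8 ± 20.2, and Ep300, a histone acetyltransferase, at 44.8 ± 20.9. CCAAT shares varied between the lists. The pentamer was present in 6 of the 11 chromatin promoters that lay in 18-list regions, in 3 of 8 mitochondrial ribosomal protein promoters and in 0 of 2 proteasome promoters, against 12 of 15 for chaperonins and heat shock proteins.

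Several lists of genes that most cells use lay near the share of all coding genes. Cytosolic ribosomal proteins had 4 of 85 genes (4.71%), respiratory chain and ATP synthase subunits 4 of 75 (5.33%), proteasome subunits 2 of 48 (4.17%), translation factors 3 of 53 (5.66%) and clustered histone genes 4 of 72 (5.56%). A union region in at least 1 list lay at 61 of the 85 ribosomal protein genes (71.8%), against 48.9% of all coding genes. A peak was thus common there and its presence in all 18 lists was not. Of all coding genes with a union region, 11.98% had an 18-list region. On that base these lists lay lower: ribosomal proteins 6.56%, respiratory chain 6.25%, proteasome 5.71%, translation factors 6.82% and histone genes 6.897%. Mitochondrial ribosomal proteins had 7 of 78 (8.97%) and splicing factors 7 of 77 (9.09%), Mediator and RNA polymerase II subunits 4 of 43 (9.30%) and glycolysis enzymes 2 of 17 (11.8%). On the same base they were at 12.73%, 10.61%, 11.43% and 15.38%. Among the replication factors, Gins2, a subunit of the replicative helicase complex, was at 88.2 ± 16.9 and Pcna, the polymerase clamp, at 87.6 ± 6.45. Psma5, a proteasome core subunit, was at 59.0 ± 21, and its promoter held no CCAAT.

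In each list of genes that mark pluripotent stages or other tissues 0 to 2 genes had a region, so the shares are uncertain. Of the naive genes 1 of 13 (7.69%) had a region (Klf5, 77.0 ± 16.6), of the formative genes 1 of 11 (9.09%; Etv5, an ETS factor downstream of FGF signalling, 84.7 ± 10.5), and of the primed and germ layer genes 0 of 16. The core factors Pou5f1, Sox2 and Sall4 had a gene-end region in at most 11, 10 and 5 of the 18 lists. No region lay at any of 39 Hox genes, 1110 olfactory receptors, 109 keratin genes or 14 blood and immune genes. Only 13, 4, 10 and 1 of these genes had a union region in any list, so little could be held there. Map2 and Syt1 of 18 neuron and muscle genes (11.1%) and Apoa2 of 15 liver genes (6.67%) did have one, beside 5.86% of all coding genes. Of genes with a union region, an 18-list region lay at 12.5% of 8 naive, 11.1% of 9 formative and 0 of 7 primed and germ layer genes. On that base it lay at 25% of 8 neuron and muscle and 50% of 2 liver genes, against 11.98% of all coding genes. Etv5 ranked between 434 and 3343, with ES at 684, 534 and 477 and FS2 at 659, 2947 and 3343, so the ES libraries lay near the top of its range.

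**Figure D4:**
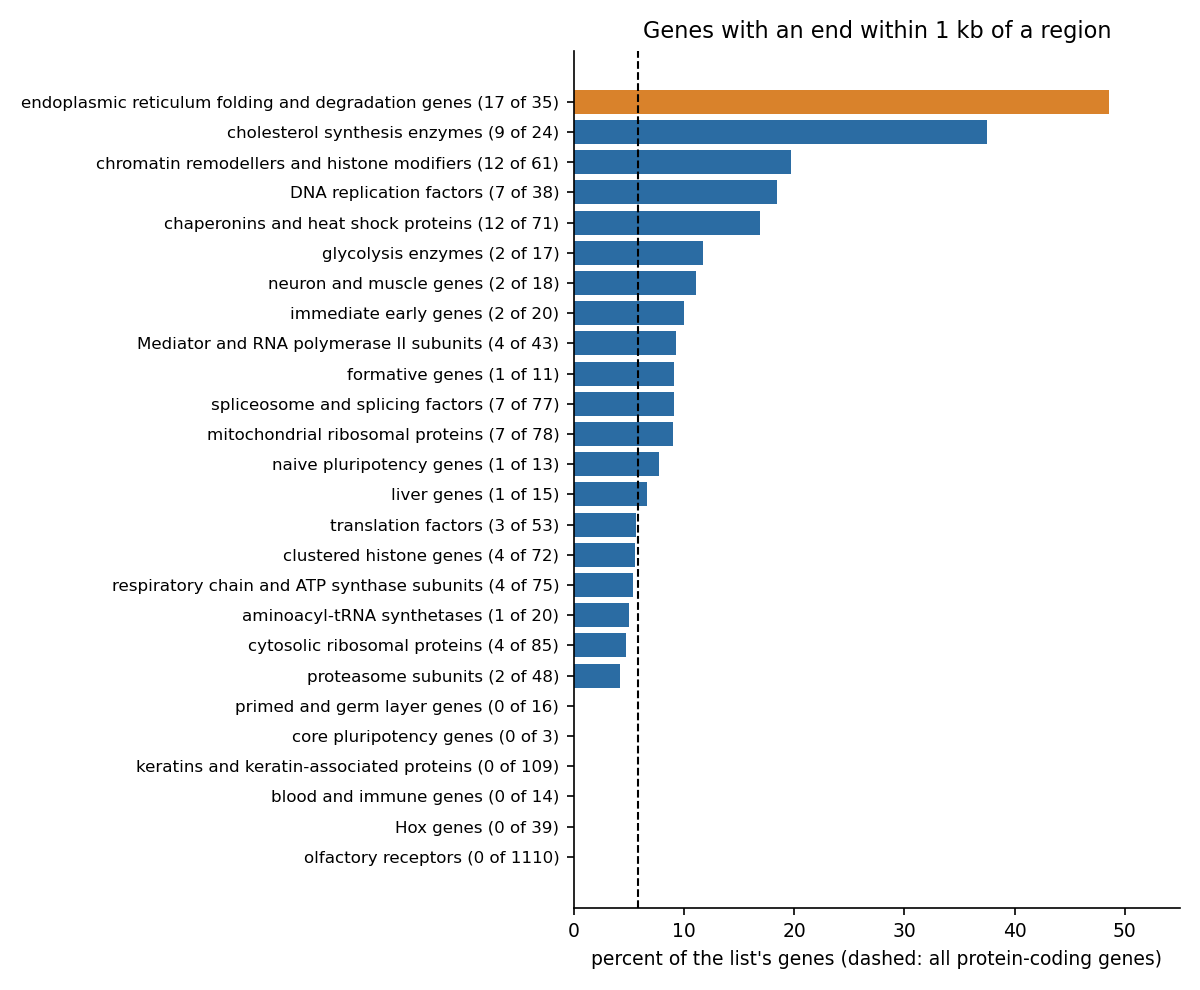
Percent of the protein-coding genes of each list with an end within 1 kb of an 18-list region, with the counts beside each name and the share of all protein-coding genes as a dashed line. Cholesterol synthesis enzymes reach 37.5% and the endoplasmic reticulum list, in orange because it was drawn up after values were seen, 48.6%, while ribosomal protein, proteasome and histone genes lie near 5.86%. Genes without any union region are counted in every share.

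Presence in every list did not mean equal rank in every line. The SD over the 18 percentiles of a region had a median of 15.3, with a median SD of 9.58 within lines and of 10.4 between line means. Over 20 kb from genes the between-line spread was the larger in 169 of 193 regions. Smarca5, the ATPase of ISWI chromatin remodellers, was at ranks 198, 140 and 264 in ES and between 665 and 7284 in the other 15 libraries. Suco, an endoplasmic reticulum protein, was at ranks 953, 261 and 1184 in ES and between 1714 and 6690 elsewhere. In the opposite direction, Cers4, a ceramide synthase, was at 6308, 3886 and 6568 in ES, at 4049, 4699 and 1403 in FS2 and between 164 and 1059 in the other lines. Fzr1, an activator of the anaphase-promoting complex, was at 6942, 7615 and 3226 in ES, at 3575, 7366 and 6013 in FS2 and between 470 and 2616 in the other lines. The ES mean exceeded that of the other lines by 37.2 points at Smarca5 and 37.3 at Suco. Larger excesses were at Gm3667 (49.3), chr9:3019891-3022590 (45.4), Sec11c (39.6) and a region near Gm51877 (38.4). In the same order, FS2 had mean percentiles of 58.7, 88.5, 39.6 and 90.2, beside 71.4, 90.6, 73.3 and 96.3 in ES. These regions were named for their extreme ES value or SD, so the values are a description.

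The rule asks for rank 8044 or better in all 18 lists, and regions just inside and outside that limit differ little. Just inside, Fnbp4 was at rank 8041 in FS2 replicate 2, Idh1 at 8036 in EpiSC_AFX2 replicate 3 and Chd2 at 8035 in FS2 replicate 1. Just outside, Ulk1 was at 8046 in FS2 replicate 1 and Creb3l2 and Wdr81 at 8047 and 8049 in FS2 replicate 2. Of the 859 regions in 17 lists, 378 lacked an FS2 list and 368 an ES list, and 463 of the 859 (53.9%) had a lower ranked peak in the full list of the missing library. That held for 302 of the 378 and for 52 of the 368, of which 148 lacked the ES list whose full length is 8044 peaks and that can hold no lower peak.

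Whether the regions had a peak again in cells profiled and processed separately was asked of the Rd2 lists, which the rule did not use. In Rd2_ES the regions had a peak in 16.5% and 55.4% of cases, where all union regions had one in 1.72% and 9.37%. The 4 Rd2_EpiLC lists held 87.5%, 90.5%, 83.7% and 89.7% of the regions, against 34.1%, 57.1%, 25.6% and 58.7% of all union regions. The 2 Rd2_AFX lists held 88.1% and 87.8%, against 37.7% and 36.1%. The low values in Rd2_ES went with short lists, of 471 and 2576 peaks, and in the shorter one 54.1% of all peaks lay on the 1500 regions.

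Compared within each library with the other 23568 union regions, the 18-list regions were held more often by 45.0 ± 15.6 percentage points (SD, n = 8 libraries) and in 8 of 8 libraries. An exact two-sided sign-flip permutation test over the 8 libraries gave p = 0.00781, the smallest that 8 libraries allow, and an adjusted p of 0.0130 by Benjamini-Hochberg over 5 tests. The difference was 20.1 points with Rd2 lists of equal length and 25.7 with the top 4000 peaks of each first-set list. The 18-list regions are also the wider ones (medians of 752.5 and 346 bp), which makes an overlap easier, and the part of width was not tested.

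Against the 2211 regions in 15 to 17 lists, which have a like width, the difference was 4.98 ± 11 percentage points and positive in 4 of 8 libraries, and the same exact permutation test gave p = 0.258. It was 12.8 and 27.1 points in the 2 Rd2_ES libraries, between −5.25 and 9.72 in Rd2_EpiLC, and −1.03 and −1.66 in Rd2_AFX. Split by distance, the regions at gene ends were held more often than those in 15 to 17 lists in 8 of 8 libraries, by 9.15 points on average (exact permutation p = 0.00781, adjusted p = 0.0130), in a comparison added after the data were seen. Over 20 kb from genes the difference was 16.8 and 19.2 points in Rd2_ES and between −27.7 and −9.25 in the other 6 libraries.

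**Figure D5:**
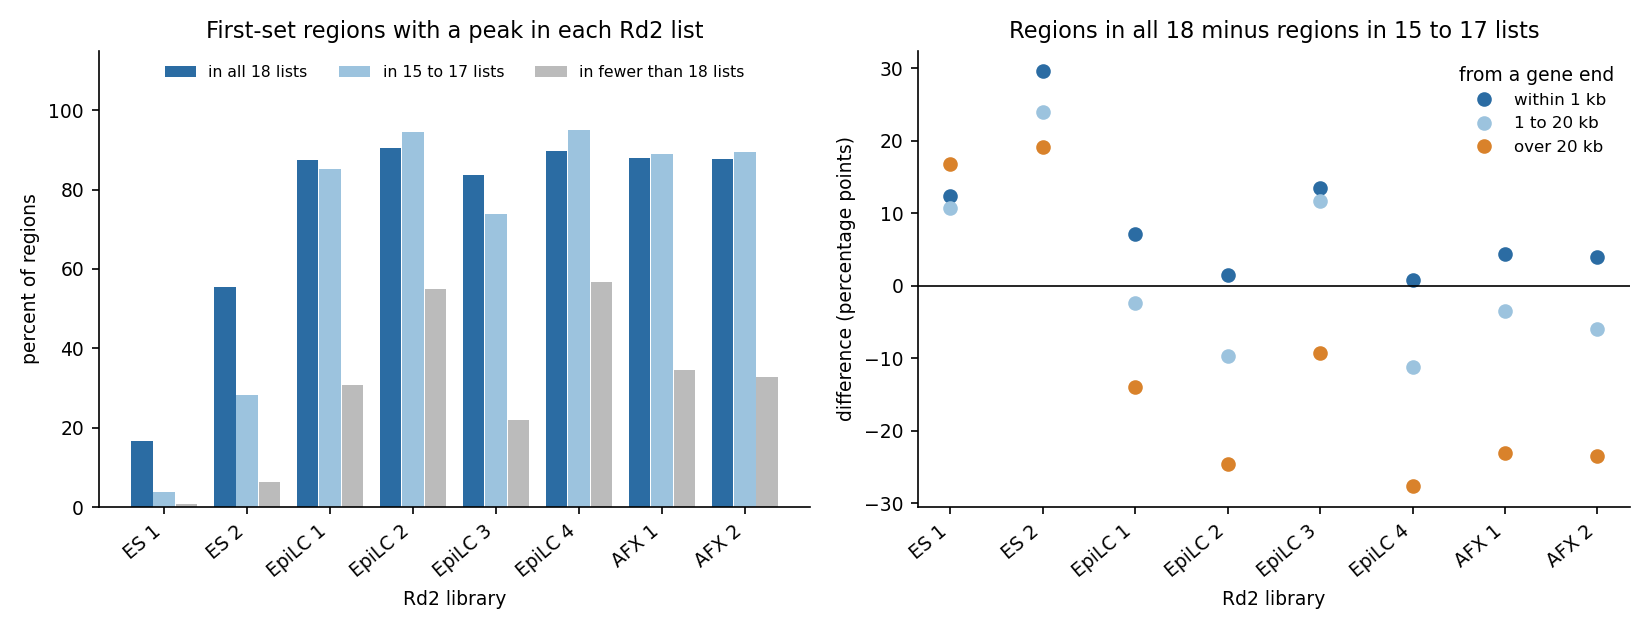
Left, percent of first-set regions with a peak in each Rd2 list, for regions in all 18 lists, in 15 to 17 lists and in fewer than 18 lists (which includes the 15 to 17 class); right, the difference in percentage points between the 18-list regions and those in 15 to 17 lists, by distance from a gene end. The right panel shows points above 0 in all 8 libraries at gene ends and below 0 in all 6 EpiLC and AFX libraries over 20 kb.

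Peaks on the regions were also higher and wider within the Rd2 lists. Their mean percentile rank exceeded that of the other peaks by 32.0 ± 11.7 (8 of 8 libraries, exact permutation p = 0.00781, adjusted p = 0.0130), and by 15.5 with Rd2 lists of equal length. For peaks on the gene-end regions alone the mean difference was 28.4, but Rd2_ES replicate 1 went the other way. There those peaks were at 45.2 and all other peaks at 52.9. A wide peak overlaps a region more easily, and the part of this in the rank and width differences was not tested. In the Rd2_EpiLC libraries peaks on the regions were at 84.5 ± 7.82 and the others at 46.4 ± 1.41 (SD, n = 4), and in Rd2_ES at 55.7 and 61.1 against 43.3 and 44.6. The median width was larger by 0.52 ± 0.31 on the log2 scale in 7 of 8 libraries (exact permutation p = 0.0156, adjusted p = 0.0195), the exception being Rd2_ES replicate 1 with 208 against 215.5 bp. The share within 1 kb of a gene end was higher by 23.5 ± 9.94 percentage points in 8 of 8 libraries, with 78.2% to 79.7% of the peaks on the regions at a gene end in the EpiLC and AFX lists. The distance of a region from a gene is set by the regions chosen, so this share is given as a description.

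Counted over lists, 220 of the 1500 regions (14.7%) had a peak in all 8 Rd2 lists, against 1.22% of all union regions, and 1212 (80.8%) had one in all 6 EpiLC and AFX lists, against 17.1%. No EpiLC or AFX list had a peak on 133 regions (8.87%), against 33% of all union regions, and no Rd2_ES list had one either. The 133 regions were mostly far from genes: 83 lay over 20 kb away, 41 at 1 to 20 kb and 9 within 1 kb. The 193 far regions divided into 83 held by none of the Rd2 lists, 39 held by all 8, and the rest held by some of them.

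The far regions absent from Rd2 were not the weak ones. The 83 had a median mean percentile of 92.4 over the 18 lists and a median width of 345 bp, and the 39 held by all 8 Rd2 lists had 98.4 and 681 bp. Their median percentile was 98.6 in ES and 98.7 in FS2, 97.3 in EpiSC_AFX1, 97.2 in EpiSC_AF, 86.5 in FS1 and 84.0 in EpiSC_AFX2. Among them were the regions 1140 kb from Galc, on chromosome 12, and 640 kb from Nxph1, chr6:9889877-9890221, both within the 10 highest of the 1500. The first set and the Rd2 set were processed differently, with a shortest peak of 150 bp and 110 bp and a tag in the peak names of the first set alone. The cells may differ as well. The part of processing or of the cells in these absences was not tested.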

How the data were processed

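Each library had 1 deposited peak list in the broadPeak layout, so the authors called peaks per sample. Trim Galore, Bowtie, Picard, MACS2 and the build mm10 are named, without versions, per the submitters' processing notes. The protocols in the labels state 50000 cells a library, treated with Tn5 from a Nextera kit. Each deposited peak carries a score, a fold enrichment (a ratio), and the −log10 of its p and of its q, all the authors' values and used only to rank or filter peaks within their own list. What the fold enrichment is relative to is not given in the sources used here. The deposited score was not used.

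The 8044 peaks with the highest −log10 p (ties by position) of each first-set list were merged. An overlap of 1 bp counted as presence. Gene ends were those of 21883 protein-coding genes of a RefSeq table of GRCm38.p6, whose primary chromosomes are those of mm10. That table has no strand, so both ends count. The 32851 promoters of 27025 genes came from RefSeq, and 79.9% of the coding genes had one. Tests compared values within each Rd2 library and used an exact two-sided sign-flip permutation over 8 libraries, adjusted over 5 tests at a threshold of 0.05. The steps were tested on simulated data. Python 3.11.15, NumPy 2.4.6 and pandas 2.3.3 were used.

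Named regions were the highest ranked, those with extreme ES values, the widest, those with extreme SD, those in none or all of the Rd2 lists, those nearest to rank 8044, and up to 4 leading genes for each gene list. Other list members are named where a list is described, and some members are not reported here. The regions and gene lists were chosen with earlier results of these data known. No library pair shared over 0.116% of its peaks with identical coordinates. Alternatives were another ranking column, other list lengths, shared bases in runs of 50 bp or more, other gene distances, leaving out libraries, and Rd2 lists of equal length or filtered by −log10 q.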

Additional observations from a re-analysis of the deposited data

Results flagged for a closer look

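The hold of the 18-list regions relative to regions in 15 to 17 lists went opposite ways in 2 groups of the Rd2 set. It was higher in both Rd2_ES libraries, with a mean difference of 19.98 percentage points, and lower in both Rd2_AFX libraries, with a mean of −1.35 points. The difference between the groups was not tested, and the Rd2_ES lists were the shortest of the set. Among the 4 Rd2_EpiLC libraries no library stood apart from the others in any of the 12 measures checked.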

How the results depend on the processing

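Of 239 recomputed values over 8 results, 227 kept their direction and side of the threshold or stayed within their counting range. The difference from the other union regions in hold did so in all 34 alternatives, as did those from the other peaks in rank, width and gene-end share. The gene-end share is set by the choice of regions, so its 34 values among the 227 are no support. For these differences the adjusted p by exact permutation lay between 0.00977 and 0.0391. With Rd2 lists of equal length these differences fell to 20.1 points in hold, 15.5 in rank and 6.19 points in gene-end share, and with the top 4000 peaks the hold difference was 25.7 points. With the top 4000 peaks of each list there were 523 regions, 62.7% at gene ends and 82.8% of promoters with CCAAT. With the lists as deposited there were 2695 regions and 59.8% of promoters with CCAAT, and with shared bases only 77.6%. A distance of 5 kb gave a gene-end share of 78.2%. The hold relative to regions in 15 to 17 lists was the least stable: −4.92 points with the top 4000 peaks (p = 0.234 by exact permutation) and −10.7 over 20 kb from genes, but past the threshold at 13.6 points with the lists as deposited (adjusted p = 0.0313), 16 with Rd2 lists of equal length (adjusted p = 0.0130) and 9.15 within 1 kb of a gene end. The cause was not tested. Leaving out 1 first-set library gave 1504 to 1660 regions, and 1 Rd2 library a hold difference of 1.82 to 6.44 points from the 15 to 17 class. No paired analysis was possible because no groups of libraries were compared, so replicate numbers pair nothing; each test set values of the same library against each other. Depth is unknown, so how far it sets list length was not tested.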

Other observations

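Of 1005 miRNA hairpins of the RefSeq table, 3 overlapped an 18-list region, those of Mir210, Mir7648 and Mir8114. Hairpins on any union region were not counted, so this number has no base beside it. Over the whole first set, the regions that missed a single list lay at gene ends in 79.2% of cases, the highest share of any number of lists. The motif of the sterol response, searched as TCACNCCAC after the gene lists were seen, was present in 0.807% of the promoters in 18-list regions and 1.24% of all promoters, and in 1 of the 5 promoters of the cholesterol list that lay in such a region (Hmgcs1).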
